A study of Homo sapiens with 6 samples.

Results

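The keratin family comprised the 55 protein-coding genes of the deposited table named KRT followed by a number and, for some members, a letter from A to C, out of 58735 genes in all. They were examined in KYSE410, a human line derived from a squamous cell carcinoma of the oesophagus, by RNA sequencing of polyadenylated transcripts. In 3 samples ADAR1, the enzyme that edits adenosine to inosine in double-stranded RNA, was knocked down with siRNA (siADAR1), and 3 samples were controls. The controls are titled NC and are elsewhere described as wild type with no treatment, so it is not known whether they received a control siRNA. Loss of ADAR1, delivery of siRNA and off-target effects therefore cannot be told apart. All samples carry the same batch label, and none is said to come from a separate culture, so p-values reflect spread that may be no more than technical. The data describe a population of cells of this line, in which fewer cells with a transcript and less transcript per cell cannot be told apart.

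Keratins are the intermediate filament proteins of epithelial cells. Type I keratins are encoded in a cluster on chromosome 17 and type II keratins in a cluster on chromosome 12, which also holds the type I gene KRT18, and a filament is built from heterodimers with a member of each type. In stratified epithelium such as that of the oesophagus, KRT5 pairs with KRT14 in basal cells, and KRT4 pairs with KRT13 above them. KRT6, KRT16 and KRT17 are induced on wounding and stress, and KRT7, KRT8, KRT18 and KRT19 are the keratins of simple epithelium.

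Total counts were 15175619 to 16903792 per siADAR1 library and 15497788 to 17329443 per control library. ADAR, the knockdown target, had 92.8, 95.7 and 77.6 CPM (counts scaled to a common library size) in siADAR1, against 455.6, 431.5 and 443.5 CPM in control. Its log2 fold change, siADAR1 over control, was -2.32 ± 0.09 (SE), and the adjusted p of the edgeR quasi-likelihood test was 1.06e-08. Of the markers of squamous epithelium, TP63, DSG3 and DSC3 were present in every library, but PKP1, a desmosomal plaque protein of stratified epithelium, averaged 1.43 CPM in siADAR1 and 1.90 CPM in control, and SOX2 2.33 CPM in siADAR1 and 1.24 CPM in control. The 9 squamous markers, which include the epithelial genes CDH1, PERP and EPCAM, summed to 1329 to 1536 CPM in siADAR1 and 1538 to 1629 CPM in control. CDH1 was the largest member of that sum, with a mean of 453 CPM in siADAR1 and 575 CPM in control. TP63 and DSG3 were higher, CDH1 and SFN were lower and 5 did not pass. The share that passed was 44.4%, against 51.0% of all tested genes. Of 7 fibroblast markers 2 could be tested, both higher in siADAR1, as were 26.0% of all tested genes. The fibroblast list summed to at least 72.3 CPM in each siADAR1 library and to at most 59.5 CPM in each control library. Most of that sum came from LUM, and DCN had 0 counts in every library. Summed markers of leukocytes (4 genes, with CD3E at 0) stayed at 0.255 to 0.451 CPM in siADAR1 and 0.460 to 0.808 CPM in control, those of endothelium (3 genes, none at 0) at 0.677 to 1.33 CPM in siADAR1 and 1.05 to 2.15 CPM in control, and those of glandular epithelium (6 genes, with CDX2 at 0) at 4.26 to 7.84 CPM in siADAR1 and 6.83 to 7.13 CPM in control. Of the glandular genes 3 could be tested, and TFF2 alone passed, as lower in siADAR1. It averaged 1.43 CPM in siADAR1 and 3.64 CPM in control (edgeR adjusted p = 0.00600). The part of other cell types in the results below was not tested. On a principal component analysis of tested genes the libraries numbered 1 stood apart from the other libraries of their groups, siADAR1 replicate 1 at -60.5 on the first component, against -41.0 and -40.9 for the other siADAR1 libraries, and control replicate 1 at 36.1 on the second, against -19.6 and -13.3 for the other controls.

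Keratins of simple epithelium made up most of the keratin transcript pool of KYSE410 in both groups. Only 15 of the 55 genes had enough counts to be tested, 17 more had some counts and 23 had none in any library. Of the 15, 3 passed the test as higher in siADAR1 (KRT16, KRT80 and KRT17) and 4 as lower (KRT6A, KRT13, KRT5 and KRT19), while 8 did not pass. A gene passed when its edgeR quasi-likelihood p, adjusted over the 15294 tested genes of the whole table, was below 0.05, and 51.0% of them passed (26.0% higher and 25.0% lower), so the 46.7% of tested keratins that passed lay near the general share. In 9 of the 15 the CPM of the groups did not overlap, against 60.3% of all tested genes. The median log2 fold change of the 15 was -0.01, beside 0.00469 for all tested genes. With library totals in place of the composition-adjusted scaling, the median over all genes moved to 0.12, and 5 keratins were higher and 3 lower. Without both libraries numbered 1, 5 were higher and 4 lower. KRT6A alone passed with a change of 2-fold or more, a criterion that 14.8% of all tested genes met.

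**Figure D1:**
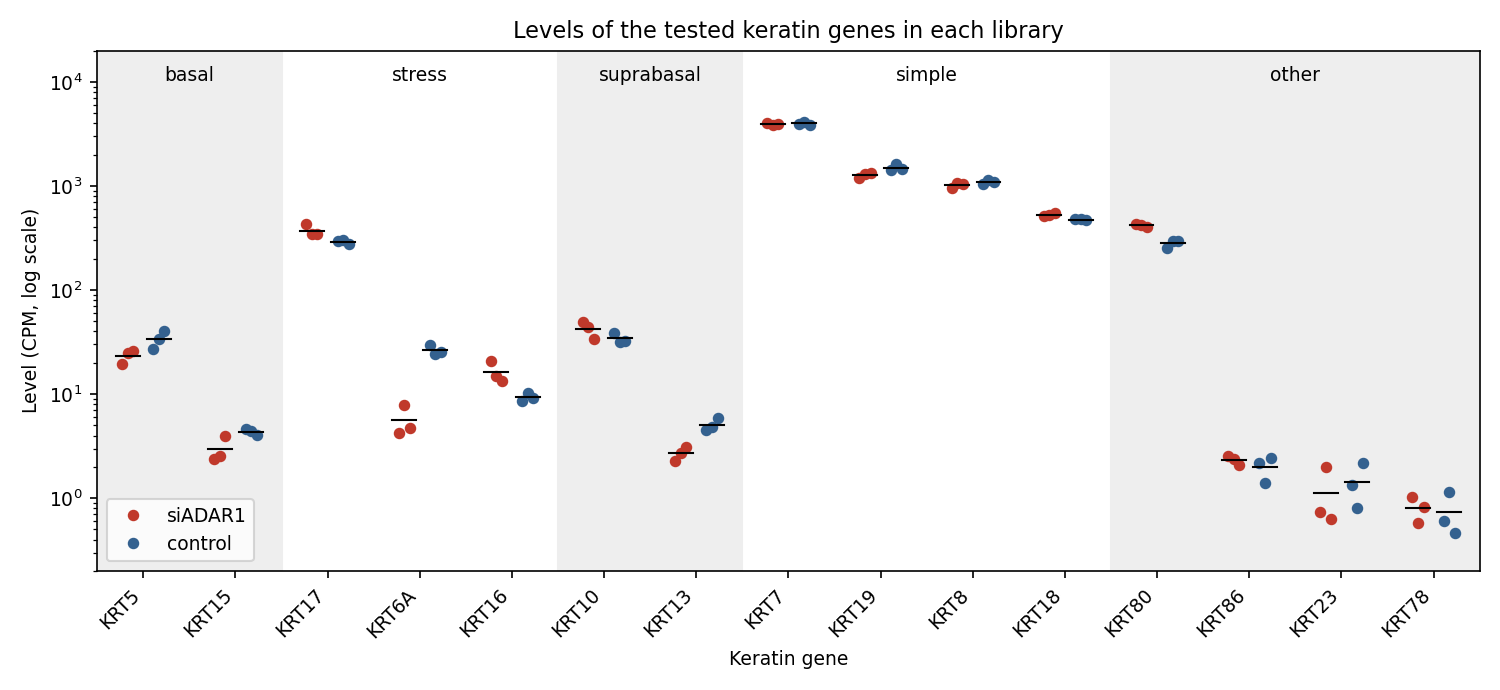
Level of each of the 15 tested keratin genes (CPM, log axis) in each siADAR1 library (red) and each control library (blue), grouped by the cell layer or setting in which each keratin is known, with lines at the group means (n = 3 each). KRT6A shows the widest gap, at 4.23 to 7.83 CPM in siADAR1 and 24.2 to 29.5 CPM in control, while KRT7 overlaps between the groups at 3899 to 4168 CPM.

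Among the simple keratins, KRT7 (ENSG00000135480, chromosome 12, 52232520 to 52252186, GRCh38) was the most abundant keratin, with 4064, 3908 and 3941 CPM in siADAR1, against 3968, 4168 and 3899 CPM in control. The groups overlapped, and the log2 fold change of -0.01 ± 0.07 (SE) did not pass (edgeR adjusted p = 0.878). KRT19 (chromosome 17, 41523617 to 41528308), the smallest type I keratin, had 1188, 1318 and 1336 CPM in siADAR1, against 1430, 1620 and 1458 CPM in control. Every siADAR1 library lay below every control library, and KRT19 fell, with a log2 fold change of -0.23 ± 0.08 (SE) and an edgeR adjusted p of 0.0298. That call rests on small margins: it was lost without siADAR1 replicate 1 (adjusted p = 0.0701), replicate 2 (0.0523) or replicate 3 (0.0507), with library totals alone (0.243) and without control replicate 2 (0.157). Its adjusted p spanned 0.00772 to 0.243 across the alternatives. The partners KRT8 (chromosome 12, 52897187 to 52949954) and KRT18 (chromosome 12, 52948871 to 52952901) lie next to each other. KRT8 had 949, 1080 and 1053 CPM in siADAR1, against 1049, 1150 and 1092 CPM in control, with overlapping groups and a log2 fold change of -0.09 ± 0.08 (SE, edgeR adjusted p = 0.337). KRT18 had 521, 523 and 553 CPM in siADAR1, against 480, 479 and 470 CPM in control. Each siADAR1 library was above each control, but the log2 fold change of 0.16 ± 0.07 (SE) did not pass (edgeR adjusted p = 0.0801). It passed with library totals alone (0.00499), with protein-coding genes alone (0.0450) and without both libraries numbered 1 (0.0162), and its adjusted p spanned 0.00499 to 0.222 across the alternatives.

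The principal transcripts of KRT8 and KRT18 share more 75-base words with other genes than those of KRT7 and KRT19. In GENCODE release 29, 525 exon bases of KRT8 and KRT18 overlap on opposite strands. That is 16.3% of the merged exon length of KRT18 and 7.63% of that of KRT8. KRT7 shares 282 exon bases, or 6.89%, with KRT7-AS on the opposite strand. The library protocol names no step that keeps strand. Of the 75-base words of the principal KRT8 transcript 18.7% also occur in a transcript of another gene, among them the pseudogene KRT8P3 with 9.26%. For KRT18 the share was 25.5%, mostly shared with KRT8, for KRT7 it was 9.05%, all shared with the antisense transcript KRT7-AS, and for KRT19 it was 0. The 50 annotated KRT8 pseudogenes together held 691, 515 and 533 counts in siADAR1, against 319, 312 and 390 counts in control, while KRT8 itself held 16831, 16966 and 16566 counts in siADAR1, against 17365, 17084 and 16621 counts in control. Of these pseudogenes 4 could be tested. KRT8P12, on chromosome 3, rose, with 28.4, 25.3 and 25.0 CPM in siADAR1, against 13.8, 15.5 and 17.9 CPM in control (log2 fold change 0.73 ± 0.14 SE, edgeR adjusted p = 5.97e-04). KRT8P46 also rose, at low levels averaging 2.25 CPM in siADAR1 and 0.519 CPM in control (log2 fold change 2.11 ± 0.46 SE, edgeR adjusted p = 0.00203). KRT8P3 and KRT8P33 did not pass, at log2 fold changes of -0.25 and 0.12. The 67 KRT18 pseudogenes held 22 to 33 counts in siADAR1 and 18 to 37 in control.

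Measured per length, as deposited FPKM (fragments scaled to gene length and library size), KRT7 made up 46.5 ± 1.10% of the summed keratin FPKM in siADAR1 and 46.0 ± 0.542% in control (SD, n = 3 each). KRT19 followed with 26.3 ± 1.58% in siADAR1 and 30.2 ± 0.825% in control. KRT18 held 7.93 ± 0.237% in siADAR1 and 6.95 ± 0.260% in control, and KRT8 held 7.16 ± 0.464% in siADAR1 and 7.48 ± 0.144% in control. The order of KRT8 and KRT18 thus differed between the groups, and it also depends on the length used. The deposited length of KRT8 is 6881 bases, against 2126 for its principal transcript, and on principal transcript lengths, an alternative chosen after seeing the data, KRT8 held 10.2 to 11.6% in siADAR1 and 11.2 to 11.7% in control and stood above KRT18 in both (7.76 ± 0.228% in siADAR1 and 6.79 ± 0.245% in control). The 4 simple keratins together held 86.6 to 88.8% of the keratin FPKM in siADAR1 and 90.4 to 90.9% in control, with no overlap between groups. The summed keratin FPKM was 2060 ± 4.73 in siADAR1 and 2109 ± 88.2 in control (SD, n = 3 each), a difference smaller than the spread between control libraries. As a share of raw counts, keratins held 0.797 to 0.807% in siADAR1 and 0.725 to 0.779% in control, with no overlap. Raw counts lack the composition-adjusted scaling of the CPM, whose factors were 1.04 to 1.05 in siADAR1 and 0.957 to 0.963 in control. The comparison of keratin totals thus depends on the measure used and on its scaling. On the deposited lengths, type I keratins stood at 0.679 to 0.719 of the type II sum in siADAR1 and at 0.734 to 0.756 in control. This ratio also depends on the length used, and its gap between groups was not tested on principal transcript lengths.

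**Figure D2:**
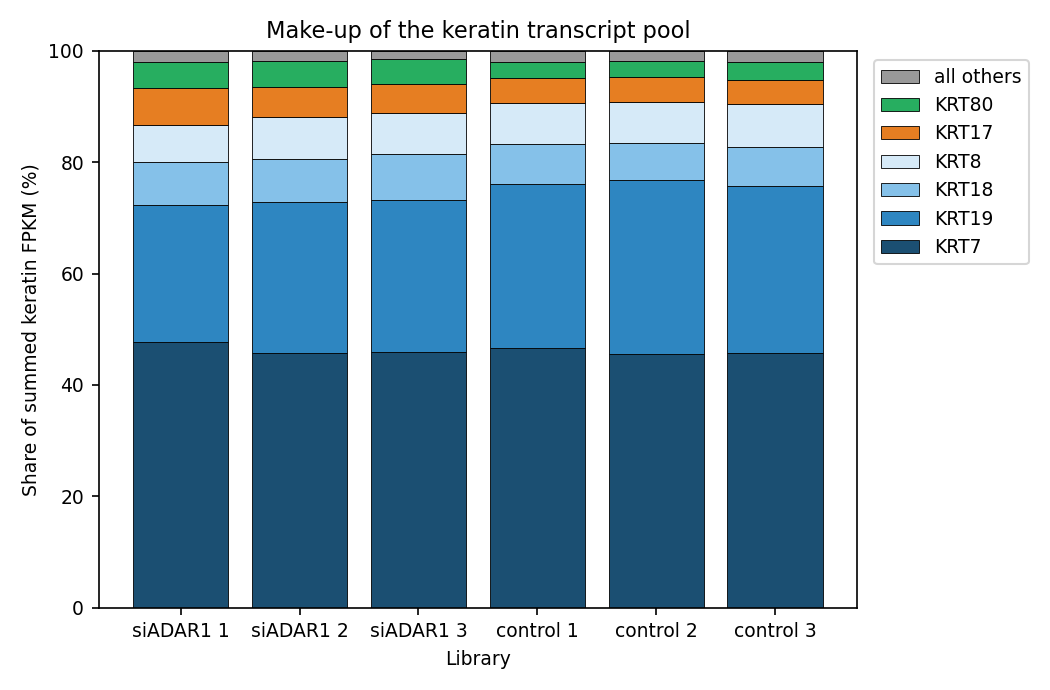
Share of the summed keratin FPKM (%) held by the 6 most abundant keratins and by all others, in 3 siADAR1 libraries and 3 control libraries. KRT7 holds 45.8 to 47.8% in siADAR1 and 45.6 to 46.6% in control, and the KRT80 band is deeper in siADAR1, at 4.44 to 4.78%, than in control, at 2.81 to 3.30%.

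The stress keratins moved in opposite directions. KRT6A (ENSG00000205420, chromosome 12, 52487174 to 52493257), the type II keratin that appears in wounded and hyperproliferative epithelium, had 4.23, 7.83 and 4.77 CPM in siADAR1, against 29.5, 24.2 and 25.4 CPM in control. Every siADAR1 library was far below every control, and KRT6A fell by 2.24 ± 0.20 (SE) on the log2 scale, with an edgeR adjusted p of 2.60e-06. This call held in all 18 alternatives, with log2 fold changes of -2.55 to -1.80. Its type I partner KRT16 (ENSG00000186832, chromosome 17, 41609778 to 41615899) rose, with 20.9, 14.9 and 13.3 CPM in siADAR1, against 8.64, 10.2 and 9.26 CPM in control. The groups did not overlap, siADAR1 replicate 1 was the highest library, and the log2 fold change was 0.81 ± 0.18 (SE, edgeR adjusted p = 0.00250). It was 0.59 without siADAR1 replicate 1 (adjusted p = 0.0125) and 0.53 without both libraries numbered 1 (adjusted p = 0.00675), within adjusted p of 2.65e-05 to 0.0366 over all alternatives. KRT17 (ENSG00000128422, chromosome 17, 41619441 to 41624842), a type I keratin of wounded epithelium and skin appendages, had 430, 343 and 343 CPM in siADAR1, against 296, 302 and 278 CPM in control. It rose by 0.35 ± 0.10 (SE) on the log2 scale (edgeR adjusted p = 0.00870), again with siADAR1 replicate 1 the highest, and by 0.23 without that library (adjusted p = 0.0226).

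The remaining stress keratins were near the detection limit. KRT6B, a close paralog of KRT6A, had 3, 5 and 9 counts in siADAR1, against 6, 2 and 1 counts in control, and KRT6C had 0, 1 and 0 counts in siADAR1, against 1, 0 and 0 counts in control. Of the 75-base words of the principal KRT6A transcript 26.2% also occur in KRT6B, KRT6C or another gene, and how reads from such stretches were counted is not given in the sources used here. KRT6A itself had 75, 123 and 75 counts in siADAR1, against 488, 359 and 386 counts in control, and the part of shared reads in this difference was not tested. For KRT16 and KRT17 the shared words were 9.68% and 4.19%, and the annotated KRT16 and KRT17 pseudogenes held at most 3 counts in any library.

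**Figure D3:**
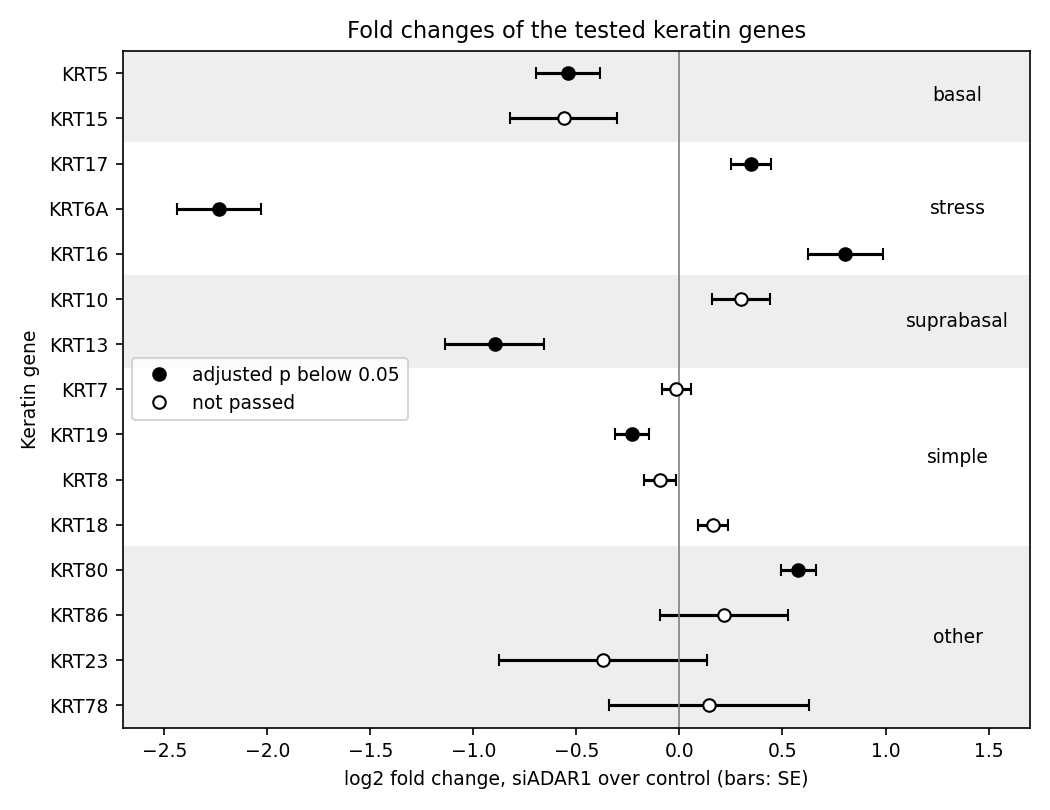
Log2 fold change of each tested keratin gene, siADAR1 over control, with its SE (bars) from the edgeR fit over all genes (n = 3 per group), with filled points where the adjusted p is below 0.05. KRT6A lies at -2.24 and KRT13 at -0.90, against 0.81 for KRT16 and 0.58 for KRT80, while the 4 simple keratins lie between -0.23 and 0.16.

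With KRT6A lower and KRT16 higher, the more abundant transcript of this pair was KRT16 in siADAR1 and KRT6A in control. The ratio of KRT6A to KRT16 FPKM was 0.171 to 0.444 in siADAR1 and 2.00 to 2.88 in control. On the log2 scale it averaged -1.81 ± 0.69 in siADAR1 and 1.25 ± 0.27 in control (SD, n = 3 each). The ratio of KRT6A to KRT17 was 0.0105 to 0.0244 in siADAR1 and 0.0854 to 0.106 in control. The other pairs moved by less: KRT8 to KRT18 averaged -0.15 ± 0.09 in siADAR1 and 0.11 ± 0.07 in control on the log2 scale, and KRT7 to KRT19 averaged 0.83 ± 0.12 in siADAR1 and 0.61 ± 0.05 in control (SD, n = 3 each). In all 4 pairs the groups did not overlap, and the two-sided exact permutation test gave p = 0.10 for each (0.10 adjusted over the 4 pairs), which is the smallest p that 3 against 3 samples allow. KRT5 to KRT14, KRT4 to KRT13 and KRT1 to KRT10 were not compared, because a partner had libraries with 0 counts.

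**Figure D4:**
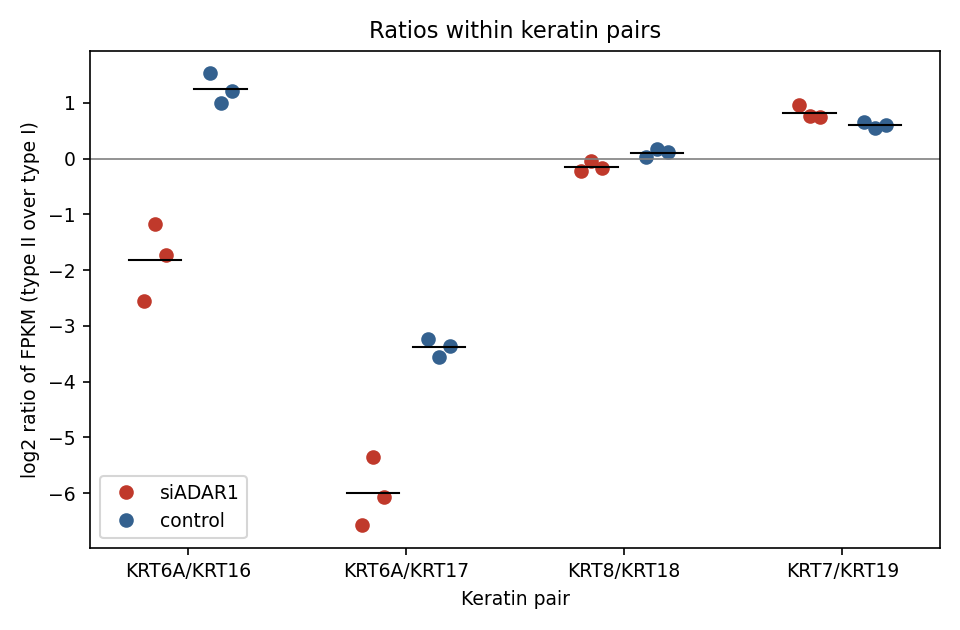
Log2 ratio of the type II to the type I member of 4 keratin pairs, from FPKM, in each siADAR1 library (red) and each control library (blue), with lines at the group means (n = 3 each). The KRT6A to KRT16 ratio is below 0 in all siADAR1 libraries and above 0 in all controls, and KRT6A to KRT17 is below 0 in all 6 libraries.

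The basal keratins were low, at 0.282 ± 0.0393% of the summed keratin FPKM in siADAR1 and 0.401 ± 0.0748% in control (SD, n = 3 each). KRT5 (ENSG00000186081, chromosome 12, 52514575 to 52520687), the type II keratin of the basal layer, had 19.6, 24.8 and 25.7 CPM in siADAR1, against 27.4, 33.9 and 40.7 CPM in control. It fell by 0.54 ± 0.16 (SE) on the log2 scale (edgeR adjusted p = 0.0106), with every siADAR1 library below every control. Without control replicate 3, the highest library, the log2 fold change was -0.40 and the call was lost (adjusted p = 0.0606, range 7.26e-05 to 0.0956 over all alternatives). Its usual partner KRT14 had 2, 1 and 0 counts in siADAR1, against 0, 0 and 1 counts in control, all under 3 counts in a library, too few for a fold change. KRT15, the other type I keratin of the basal layer, had 2.37, 2.55 and 3.94 CPM in siADAR1, against 4.59, 4.44 and 4.01 CPM in control. The groups did not overlap, but the log2 fold change of -0.56 ± 0.26 (SE) did not pass (edgeR adjusted p = 0.0883). It passed without siADAR1 replicate 3, the highest of its group, at -0.81 (adjusted p = 0.0332, range 0.0332 to 0.303).

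Of the suprabasal keratins, KRT13 (ENSG00000171401, chromosome 17, 41500981 to 41505705), the type I keratin of differentiating oesophageal epithelium, had 2.26, 2.74 and 3.11 CPM in siADAR1, against 4.47, 4.78 and 5.85 CPM in control. It fell by 0.90 ± 0.24 (SE) on the log2 scale (edgeR adjusted p = 0.00741), and the call held in all 18 alternatives, the weakest at an adjusted p of 0.0498 on FPKM with no filter. An antisense transcript shares 476 exon bases with KRT13, or 16.3% of its merged exon length, and unstranded reads there cannot be told apart. Its partner KRT4 had 0 counts in each siADAR1 library, against 0, 3 and 1 counts in control. KRT10 (chromosome 17, 40818117 to 40822595), the type I keratin of cornifying layers, had 49.2, 43.7 and 33.6 CPM in siADAR1, against 38.4, 32.0 and 32.3 CPM in control. The groups overlapped, and the log2 fold change of 0.30 ± 0.14 (SE) did not pass (edgeR adjusted p = 0.0907). It passed without siADAR1 replicate 3 (0.0158), without control replicate 1 (0.0442), without both libraries numbered 1 (0.0483) and with library totals alone (0.0259), at log2 fold changes of 0.26 to 0.45. Over all alternatives its adjusted p ranged between 0.0158 and 0.335. KRT1, with which KRT10 pairs in skin, had 0 counts in all 6 libraries.

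Promoters of 34 of the 55 keratins, 3 of them tested, were matched by symbol in RefSeq (GRCh38.p14), and the 250 bases before the start of KRT5, which fell, and KRT10, which did not pass, are shown. The third tested member, KRT8, had 1 CACCC, on the strand opposite to the gene 103 bases before its RefSeq start, and is not shown because that start lies far inside the gene, away from the start of its principal GENCODE transcript. The RefSeq start of KRT10 lies next to that of its principal GENCODE transcript, and the KRT5 window lies inside the 5′ end of the GENCODE gene. The capitals mark TATAAA and CACCC, the core letters of a TATA box and of sites bound by KLF factors, on either strand.
KRT5: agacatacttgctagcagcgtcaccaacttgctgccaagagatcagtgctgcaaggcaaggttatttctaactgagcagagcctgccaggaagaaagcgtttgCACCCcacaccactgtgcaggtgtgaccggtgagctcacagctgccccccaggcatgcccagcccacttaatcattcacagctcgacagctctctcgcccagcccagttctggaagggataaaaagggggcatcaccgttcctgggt
KRT10: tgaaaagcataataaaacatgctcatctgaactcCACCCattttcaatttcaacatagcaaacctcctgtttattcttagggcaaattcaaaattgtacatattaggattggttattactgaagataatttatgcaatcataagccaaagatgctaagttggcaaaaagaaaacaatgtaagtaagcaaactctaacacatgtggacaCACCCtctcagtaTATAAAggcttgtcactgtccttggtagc
The KRT5 window is chr12:52520395-52520644 and the KRT10 window chr17:40822615-40822864, both on the minus strand and written 5′ to 3′. KRT5 held 1 CACCC, 147 bases before the start, and no TATAAA. KRT10 held TATAAA 29 bases before the start and 2 copies of CACCC, at 216 and 42 bases. Neither window held TGANTCA, the AP-1 motif, or GGGCGG, the SP1 motif. Of 34788 promoter windows of this length, 10.8% held TATAAA, 54.7% CACCC, 6.59% TGANTCA and 42.6% GGGCGG on either strand. No match overlapped another, and a match describes letters and not a bound site.

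Outside these groups lie 39 keratins, of which 4 could be tested and KRT80 alone passed. KRT80 (ENSG00000167767, chromosome 12, 52168996 to 52192000), a type II keratin located at desmosomes and in the cytoplasmic network of many epithelia, had 432, 426 and 405 CPM in siADAR1, against 254, 294 and 299 CPM in control. Its groups were well apart, and KRT80 rose by 0.58 ± 0.08 (SE) on the log2 scale, with an edgeR adjusted p of 1.04e-04. The call held in all 18 alternatives, at log2 fold changes of 0.49 to 0.70. None of the 75-base words of its principal transcript occurs in another gene. Per length it reached 95.6 ± 3.50 FPKM in siADAR1 and 64.2 ± 5.70 FPKM in control (SD, n = 3 each), below KRT17 at 117 ± 16.0 FPKM in siADAR1 and 92.4 ± 4.00 FPKM in control.

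The other tested members were low and did not pass. The hair keratin KRT86 had 2.54, 2.36 and 2.10 CPM in siADAR1, against 2.18, 1.41 and 2.43 CPM in control, and 33.2% of its 75-base words are shared, mostly with KRT81. KRT23 had 0.733, 1.97 and 0.636 CPM in siADAR1, against 1.33, 0.808 and 2.17 CPM in control. KRT78 had 1.02, 0.573 and 0.826 CPM in siADAR1, against 0.604, 1.14 and 0.460 CPM in control. In each of these 3 genes the groups overlapped and the SE of the log2 fold change was 0.31 to 0.50, which sets the precision at this depth. Among untested members, the hair keratin KRT81 had 2, 17 and 9 counts in siADAR1, against 7, 12 and 10 counts in control, and KRT83 had 3, 3 and 2 counts in siADAR1, against 0, 0 and 2 counts in control. The other 11 untested members with counts outside the named groups held at most 5 counts in any library. The floor of 3 counts per library corresponds to 0.169 to 0.191 CPM in siADAR1 and 0.181 to 0.202 CPM in control, and it covers counting error only.

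Several tested keratins are neighbours on their chromosome. KRT13, KRT15 and KRT19 lie side by side on chromosome 17, with gaps of 8.04 and 1.09 kb, and had log2 fold changes of -0.90, -0.56 and -0.23, of which the KRT15 value did not pass. KRT16 and KRT17, 3.54 kb apart, had 0.81 and 0.35. On chromosome 12, KRT6A and KRT5, 21.3 kb apart, had -2.24 and -0.54. KRT80 and KRT7, 40.5 kb apart, had 0.58 and -0.01. In the other tested neighbours the values had opposite signs and none passed, with -0.01 and 0.21 for KRT7 and KRT86, 0.14 and -0.09 for KRT78 and KRT8, and -0.09 and 0.16 for KRT8 and KRT18. By type, 2 of 8 tested type I genes rose and 2 fell, and 1 of 7 type II genes rose and 2 fell. The shares that passed, 50.0% of type I and 42.9% of type II, lay near the 51.0% of all tested genes. Of the related non-coding genes in the type II cluster, KRT87P, a transcribed keratin pseudogene, fell, with 3.61, 6.56 and 9.22 CPM in siADAR1, against 13.5, 12.5 and 16.8 CPM in control (log2 fold change -1.15 ± 0.27 SE, edgeR adjusted p = 0.00423). KRT7-AS, antisense to KRT7, did not pass, at a log2 fold change of -0.32 ± 0.17 (SE, edgeR adjusted p = 0.124).

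Transcripts of proteins that anchor keratin filaments to desmosomes and hemidesmosomes included 7 that rose, 1 that fell and 11 that did not pass, of 19 tested, with a median log2 fold change of -0.06. The share that passed was 42.1%, against 51.0% of all tested genes (26.0% higher and 25.0% lower). PLEC, the plakin that ties keratins to hemidesmosomes, had 9468, 7539 and 6523 CPM in siADAR1, against 4114, 3320 and 3763 CPM in control (log2 fold change 1.07 ± 0.13 SE, edgeR adjusted p = 4.90e-05). DSG3, a desmosomal cadherin of stratified epithelium, had 69.8, 61.9 and 63.8 CPM in siADAR1, against 16.8, 23.8 and 26.9 CPM in control, and rose by 1.54 ± 0.15 (SE) on the log2 scale. PPL, the plakin periplakin, rose by 0.90 ± 0.10 (SE), with an edgeR adjusted p of 8.48e-06. ITGA6, the hemidesmosomal integrin subunit, fell by 0.52 ± 0.09 (SE) on the log2 scale, and DSP, the desmosomal plakin that binds keratins directly, did not pass, at a log2 fold change of -0.16 ± 0.10 (SE). Of 7 tested genes for other intermediate filaments, 0 rose and 2 fell by edgeR, with a median of -0.23, and the 28.6% that passed stood beside the same 51.0% of all genes. At an unadjusted p below 0.05 VIM was higher, and 0 rose by DESeq2 or limma. With siADAR1 replicate 1 left out 1 rose, and with both libraries numbered 1 left out 1 rose. The count of filament partners that fell was 2 with siADAR1 replicate 1 or control replicate 3 left out, 3 with control replicate 1 left out and 4 with both libraries numbered 1 left out. The nuclear lamins LMNB1 and LMNB2 fell by 1.27 ± 0.12 and 0.77 ± 0.08 (SE). VIM, the mesenchymal filament vimentin, had 5.13, 6.75 and 10.0 CPM in siADAR1, against 4.41, 4.98 and 5.26 CPM in control, and did not pass (edgeR adjusted p = 0.0641).

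Of 20 tested regulators of keratin genes, most of them transcription factors, 12 rose and 3 fell, and the median of their log2 fold changes was 0.41, beside 0.00469 for all tested genes. The 15 of 20 that passed stand against 51.0% of all tested genes (26.0% higher and 25.0% lower). KLF4, a factor of differentiating epithelium, had 179, 126 and 117 CPM in siADAR1, against 30.0, 28.6 and 29.5 CPM in control (log2 fold change 2.26 ± 0.15 SE, edgeR adjusted p = 3.26e-07). The AP-1 members JUN and FOSL1 rose by 1.32 ± 0.12 and 0.86 ± 0.09 (SE). NOTCH1, a receptor whose released domain acts in the nucleus, had 30.7, 40.4 and 37.3 CPM in siADAR1, against 78.1, 61.4 and 73.7 CPM in control, and fell by 0.98 ± 0.13 (SE). SP1 and CEBPA, a factor of differentiating keratinocytes, fell by 0.58 ± 0.11 and 0.48 ± 0.17 (SE). The CEBPA call (edgeR adjusted p = 0.0300, range 0.00571 to 0.152 across the alternatives) was lost without siADAR1 replicate 3 (0.152), without control replicate 1 (0.0831), with library totals alone (0.0950) and on FPKM with no filter (0.111). The link between any of these regulators and the keratin values was not tested.

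**Figure D5:**
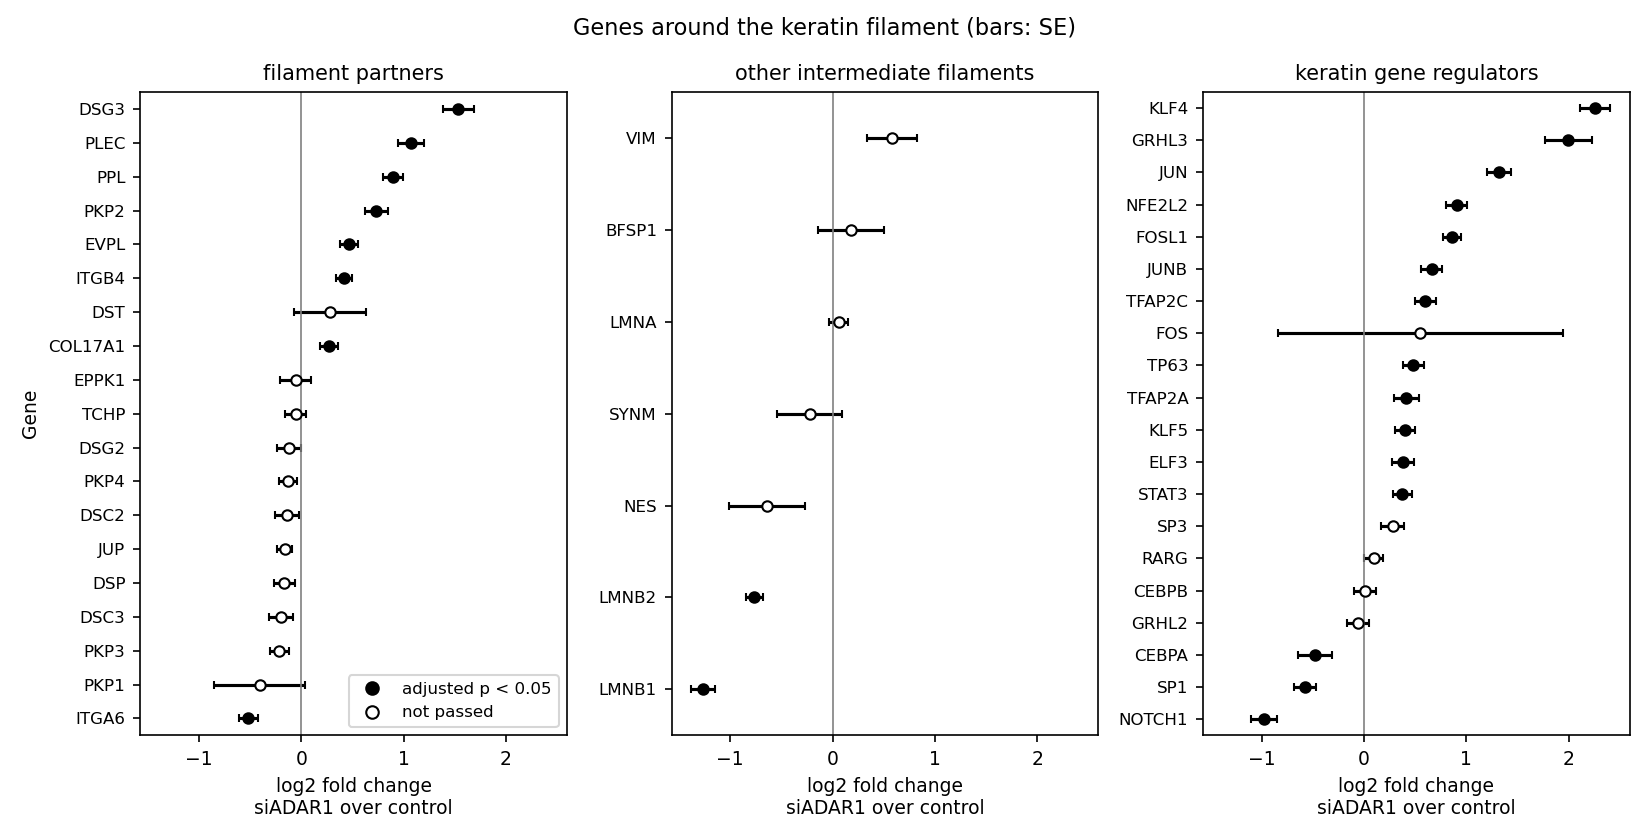
Log2 fold change with SE (bars) of the tested genes in 3 lists: filament partners (19 genes), other intermediate filaments (7) and keratin gene regulators (20), siADAR1 over control, n = 3 per group, with filled points where the edgeR adjusted p is below 0.05. KLF4 lies at 2.26 and DSG3 at 1.54, while LMNB1 lies at -1.27 and NOTCH1 at -0.98.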

How the data were processed

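The deposited counts are raw whole numbers per gene and library, as the file headers and values show. The deposited FPKM values carry a library factor set by the authors, per the file headers and the values, and were used for levels between genes and for ratios within a library. The submitters' processing notes list CASAVA, fastp and HISAT2 2.0.5 without saying what each did, and neither counting tool nor build is given in the sources used here. All 55 keratin coordinates were identical to GENCODE release 29 on GRCh38. Columns were assigned by group and replicate number in the titles.

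The count test ran in edgeR 4.0.16 under R 4.3.3: filterByExpr with a minimum count of 10, trimmed mean of M-values scaling and a robust two-sided quasi-likelihood F test of siADAR1 against control with no covariate, and Benjamini-Hochberg adjustment over 15294 genes and a threshold of 0.05. CPM are on the scaled library sizes, and an SE is the log2 fold change divided by the root of F. The test was tested on simulated data. Ratios of pairs were tested by exact permutation in scipy 1.17.1. Named genes were all keratins of the 4 groups, other keratins that were tested or had at least 10 counts in all, and up to 3 genes with the smallest p in each direction of each accompanying list. Other genes were named after their values were seen. Some list genes are not reported here. Members and lists were chosen with earlier results of these data known. Alternatives used limma 3.58.1, DESeq2 1.42.0, other scalings, filters and FPKM with pseudocounts of 0.1 and 1, the replicate number as a block, and omission of libraries.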

Additional observations from a re-analysis of the deposited data

How the results depend on the processing

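Over 18 alternatives KRT6A, KRT80, KRT16 and KRT13 kept their direction and their call, and no tested keratin that was called changed sign. The number of keratins called higher was 3 as reported, 5 with library totals alone and 5 without both libraries numbered 1, and it was 3 to 4 when 1 library was left out. The number called lower was 4, 2 on FPKM with a pseudocount of 1 and no filter, and 3 to 4 when 1 library was left out. KRT17 was not called on FPKM with no filter (adjusted p = 0.0758, range 8.61e-04 to 0.0758), nor were KRT5 (0.0956) and KRT19 (0.217). The cause was not tested. The median log2 fold change of the keratins was -0.0148 as reported, 0.103 with library totals alone, 0.0566 with DESeq2 and 0.0581 with no filter. It was -0.0490 with a CPM of at least 1 in 3 libraries, -0.0571 without both libraries numbered 1, and -0.0866 to 0.0132 when 1 library was left out. Each median covered the keratins given a fold change in that setting, so the genes behind it can differ. With DESeq2 or no filter these were all 32 keratins with any count, and not the 15 of the main test. Of the filament partners, 1 fell as reported, 2 with the replicate block, 4 without both libraries numbered 1, and 1 to 3 when 1 library was left out. Of other intermediate filaments, 0 rose as reported, 1 with library totals alone, 1 with no filter, 1 with the replicate block, 1 without both libraries numbered 1, and 0 to 1 when 1 library was left out.

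Same-numbered libraries of the 2 groups had correlations of 0.251, 0.0844 and 0.106 in their deviations from the group means. Control replicate 2 correlated about as well with siADAR1 replicate 3 (0.0917), so the numbers were not taken to pair the samples in the main test. Libraries numbered 1 correlated at -0.130 to -0.169 with libraries of other numbers in the other group. A factor shared by the libraries numbered 1 was not tested, and the main test holds no term for it. With the replicate number as a block 4 keratins were higher, KRT10 being added (adjusted p = 0.0249), and 4 lower, and over all genes 4396 were higher and 4186 lower. For the 40 keratins that were not tested, of which 23 had 0 counts in every library, only counts are given.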
